A study of Mus musculus with 21 samples.

Results

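The comparison asks which genes CAWS changed differently in R3 than in R1, 2 populations of cardiac macrophages sorted from the same hearts. CAWS is a water-soluble complex from the yeast *Candida albicans* that gives mice a vasculitis used as a model of Kawasaki disease. The value tested is the CAWS effect in R3 minus the CAWS effect in R1, so a positive value means that CAWS raised the gene more, or lowered it less, in R3. It rests on 12 of the 21 libraries of the series. These are 3 each of CAWS R3, naive R3, CAWS R1 and naive R1. The cells came from C57BL/6 hearts, the naive mice had no CAWS challenge, and each library was made from a pool of mice. R3 was gated as Ccr2-positive and MHC-II-high, and R1 as Ccr2-negative and MHC-II-low. Neither dose, time after CAWS, age nor sex of the mice is given in the sources used here. Within a treatment, libraries with the same replicate number were read as the same pool of mice, and the test blocked on that pool.

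The heart holds macrophages of different origin. Ccr2-negative cells with little MHC class II are largely long-lived, locally maintained cells that carry scavenger and efferocytosis receptors such as Timd4, Lyve1 and Cd163. Ccr2-positive cells with much MHC class II are replenished from blood monocytes, respond to chemokines of the Ccl2 group and present antigen to CD4+ T cells, and a Ccr2-positive, MHC-II-high gate can also hold dendritic cells. *C. albicans* cell wall polysaccharides are read by C-type lectins such as dectin-2 (*Clec4n*) and by scavenger receptors such as *Scarf1* and *Cd36*.

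Total counts ran from 12800136 to 14630186 in CAWS R3, 15116329 to 17471170 in naive R3, 16484940 to 18970444 in CAWS R1 and 14140007 to 18980257 in naive R1. Levels are in CPM, the counts put on a common library depth. CAWS effects and their differences are log2 fold changes with their standard error (SE) and a Benjamini-Hochberg adjusted p over 13159 tested genes. The series design calls the pools independent. The test of the difference has a term for each pool, which takes out the level shared by libraries of a pool. Its p-values therefore measure how differences between populations varied among pools of the same treatment. The CAWS effects within R3 or R1 come from a fit of group means without pool terms. That fit treats libraries of the same pool as independent. *Adgre1* (F4/80) and *Csf1r*, macrophage genes, served as an identity check, although bulk levels do not give the share of macrophages among the cells. *Adgre1* had 1972, 2480 and 2166 CPM in CAWS R3, against 1732, 1673 and 1756 CPM in naive R3. In R1, *Adgre1* had 2520, 2620 and 2640 CPM in CAWS R1, against 2068, 2195 and 2002 CPM in naive R1. *Adgre1* rose with CAWS in both populations, and the difference of 0.04 ± 0.10 (log2, SE; adjusted p = 0.858) did not pass the test. *Csf1r*, the receptor that macrophages need to survive, likewise had a difference of -0.18 ± 0.10 (log2, SE; adjusted p = 0.282). Libraries of naive R3 stood apart from each other, with replicate 3 holding the most *Lyve1*, *Timd4* and *Cd163*, and among CAWS R1 libraries replicate 2 held the most *Ccr2*. In these bulk samples, fewer cells of a type and less RNA per cell cannot be told apart.

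CAWS had different effects in R3 and R1 on 902 of 13159 genes, 6.85% of those tested. The effect in R3 was above that in R1 for 211 genes (1.6%) and below it for 691 genes (5.25%). Without the pool block, 437 genes passed, and 437 were called by both fits. Leaving out a single library moved the number of higher genes to 92 (without CAWS R3 replicate 2), 99 (without CAWS R3 replicate 1), 424 (without CAWS R3 replicate 3) or 413 (without CAWS R1 replicate 3), and the number of lower genes to 446, 458 or 447 (without CAWS R3 replicate 2, CAWS R3 replicate 1 or CAWS R1 replicate 1). The median difference over all tested genes was -0.05. Taken alone, CAWS changed 2803 genes (21.3%) in R3, of which 1435 rose (10.9%) and 1368 fell (10.4%). In R1 it changed 1747 genes (13.3%), of which 1132 rose (8.6%) and 615 fell (4.67%). Both effects enter the difference, so these counts are background and not separate support for it. They too moved by over 1.5 times without single libraries: without CAWS R3 replicate 2, 920 genes rose and 755 fell in R3, and without CAWS R3 replicate 1, 879 fell.

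The 691 lower genes came mainly from 2 patterns. For 356 of them CAWS lowered the gene in R3 while the effect in R1 did not pass the test, and for 165 CAWS raised the gene in R1 while the effect in R3 did not pass. Another 34 fell in R3 and rose in R1. Among the 211 higher genes, 126 rose in R3 with an R1 effect that did not pass. The effect was higher in both populations for 25 of the 211, and 1 gene rose in R3 and fell in R1.

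**Figure D1:**
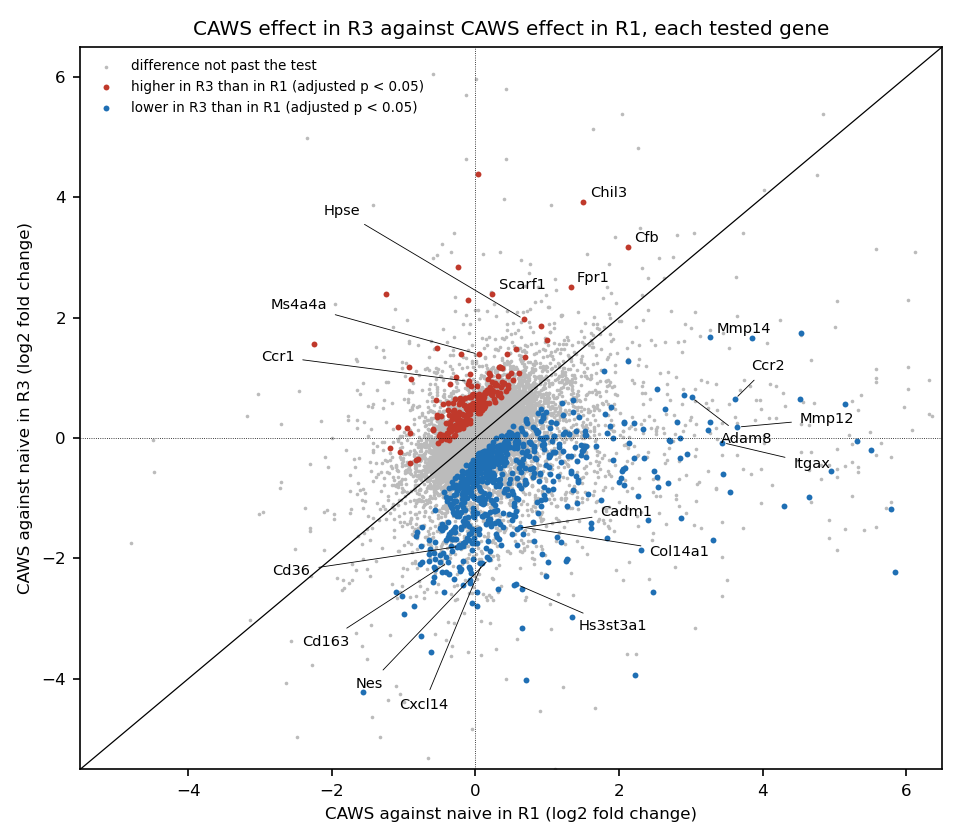
CAWS effect in R3 (vertical, log2 fold change) against the CAWS effect in R1 (horizontal, log2 fold change) for the tested genes, with 21 of 13159 outside the axes. Red points mark the 211 genes with a higher and blue points the 691 genes with a lower effect in R3 than in R1, and the diagonal marks equal effects; many blue points lie right of the vertical zero line near an R3 effect of 0, and many others below the horizontal zero line near an R1 effect of 0.

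Several genes with large negative differences were high in R3 with or without CAWS and rose in R1. In these bulk libraries, a rise within R1 cells and more cells of another type in the R1 gate cannot be told apart. *Itgax* encodes CD11c, an integrin of dendritic cells and of monocyte-derived macrophages (chromosome 7, 128129526 to 128150657). *Itgax* had 233, 197 and 240.2 CPM in CAWS R3, against 288, 208 and 209 CPM in naive R3. In R1, *Itgax* had 78.8, 120.1 and 83.9 CPM in CAWS R1, against 13.6, 6.12 and 5.26 CPM in naive R1. The R3 groups overlapped, while each CAWS R1 library lay above each naive R1 library. Its CAWS effect was -0.07 ± 0.22 (adjusted p = 0.848) in R3 and 3.44 ± 0.30 (adjusted p = 6.55e-06) in R1, and the difference was -3.52 ± 0.31 (log2, SE; adjusted p = 7.26e-05). As a share of its R3 mean, the R1 mean was 42.2% with CAWS and 3.54% in naive hearts.

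*Mmp12*, *Adam8* and *Mmp14* had higher CAWS effects in R1. *Mmp12*, macrophage elastase (chromosome 9, 7344397 to 7360461), had 278, 171 and 175 CPM in CAWS R3, against 205, 159 and 186 CPM in naive R3. In R1, *Mmp12* had 125, 125 and 102 CPM in CAWS R1, against 9.46, 13.5 and 4.78 CPM in naive R1. R3 held it at a like range in both treatments, and the R1 groups did not overlap. Its difference was -3.50 ± 0.36 (log2, SE; adjusted p = 0.00042), with a CAWS effect of 3.65 ± 0.30 (adjusted p = 4.62e-06) in R1. *Adam8*, a membrane sheddase of leukocytes (chromosome 7, 139978932 to 139995207), had 84.4, 59.4 and 60.8 CPM in CAWS R3, against 53.8, 39.05 and 34.6 CPM in naive R3. In R1, *Adam8* had 27.4, 28.6 and 27.3 CPM in CAWS R1, against 3.33, 2.93 and 4.11 CPM in naive R1. It rose in both populations, by more in R1, with a difference of -2.36 ± 0.25 (log2, SE; adjusted p = 6.53e-07). *Mmp14*, the membrane-bound collagenase that activates other proteases (chromosome 14, 54431598 to 54442456), had 143, 128 and 166 CPM in CAWS R3, against 49.1, 46.5 and 41.3 CPM in naive R3. In R1, *Mmp14* had 84.6, 90.02 and 87.5 CPM in CAWS R1, against 8.31, 11.4 and 7.41 CPM in naive R1. The groups of neither population overlapped, and the effects of 1.67 ± 0.12 (adjusted p = 2.99e-10) in R3 and 3.27 ± 0.14 (adjusted p = 5.24e-14) in R1 differed by -1.61 ± 0.17 (log2, SE; adjusted p = 9.78e-07).

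Here and below, the gene lists and their members were chosen with earlier results of these data known. Their shares beside those of all genes are therefore descriptive only. Of 25 tested matrix proteases and inhibitors, 7 had a lower effect in R3 (28% against 5.25% of all genes), 1 a higher effect and 17 did not pass. The median difference of the list was -0.77, and with any single R1 or R3 library left out 7 or 8 members were lower. The lower ones included *Mmp12*, *Mmp13*, *Mmp14*, *Adam8*, *Adam19* and *Timp2*, and the higher one was *Hpse*. They did not share one pattern. *Mmp13*, a collagenase, had 87.4, 78.96 and 82.1 CPM in CAWS R3, against 167, 163 and 169 CPM in naive R3. In R1, *Mmp13* had 121, 124 and 125 CPM in CAWS R1, against 128, 135 and 102 CPM in naive R1. It fell in R3, its R1 effect did not pass, and the difference was -1.03 ± 0.12 (log2, SE; adjusted p = 2.88e-06).

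Among genes of conventional dendritic cells, CAWS raised 2 of 22 in R3 (against 10.9% of all genes) and 6 of 22 in R1 (against 8.6%). It lowered 3 of them in R3 and 1 in R1. Of the 22, 7 had a lower effect in R3 (31.8%) and 15 did not pass, and the median difference was -1.29. Without the libraries of naive pool 2, an alternative chosen after seeing the data, as is that without naive pool 3, 4 were lower, as were 4 without the block. *Cd209a*, a C-type lectin of monocyte-derived dendritic cells (chromosome 8, 3743395 to 3748984), had 289, 170.4 and 141 CPM in CAWS R3, against 417, 279 and 207 CPM in naive R3. In R1, *Cd209a* had 19.8, 27.7 and 9.93 CPM in CAWS R1, against 1.44, 1.62 and 2.22 CPM in naive R1. R1 held far less than R3 in both treatments, and replicate 3 was the lowest of the CAWS R1 libraries. The difference was -4.003 ± 0.70 (log2, SE; adjusted p = 0.0112); the call was lost under 4 of 29 alternatives, with adjusted p-values of up to 0.148, among them without naive R1 replicate 1 (adjusted p = 0.0508). *Flt3*, the receptor for the dendritic cell growth factor Flt3 ligand, had 44.98, 23.2 and 21.96 CPM in CAWS R3, against 46.7, 36.5 and 24.01 CPM in naive R3. In R1, *Flt3* had 5.41, 7.07 and 1.58 CPM in CAWS R1, against 0.697, 0.562 and 0.472 CPM in naive R1. Its difference was -3.21 ± 0.64 (log2, SE; adjusted p = 0.00466), and the call was lost under 4 of 29 alternatives, with adjusted p-values of up to 0.191. The CAWS effect on *Flt3* in R1 alone did not pass (adjusted p = 0.0951). *Mycl*, a transcription factor of dendritic cells, had 19.7, 19.2 and 16.6 CPM in CAWS R3, against 19.01, 20.01 and 14.4 CPM in naive R3. In R1, *Mycl* had 6.83, 9.06 and 9.78 CPM in CAWS R1, against 3.43, 2.44 and 2.83 CPM in naive R1. It rose in R1, and its difference of -1.50 ± 0.29 (log2, SE; adjusted p = 0.00129) kept the call under all 29 alternatives.

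*Clec9a*, *Klrd1* and *Jaml* were so low in naive R1 that their fitted fold is not given. *Clec9a*, a receptor for actin of dead cells on cross-presenting dendritic cells, had 59 counts over the 3 CAWS R1 libraries and 1 count over the 3 naive R1 libraries. *Clec9a* in R3 had 383 counts in CAWS and 491 counts in naive libraries. *Klrd1* (CD94, a lectin of natural killer and dendritic cells) had 134 counts in CAWS R1 and 5 counts in naive R1. *Jaml*, a junctional adhesion molecule of leukocytes (chromosome 9, 45079153 to 45108531), had 19.8, 15.4 and 13 CPM in CAWS R3, against 21.5, 19.1 and 11.4 CPM in naive R3. In R1, *Jaml* had 1.64, 3.39 and 0.356 CPM in CAWS R1, against 0, 0 and 0 CPM in naive R1. With 96 counts in CAWS R1 and none in naive R1, the group level of *Jaml* was at least 29.3-fold higher in CAWS R1. That takes a floor of 3 counts over the naive group, which covers counting error only. Its CAWS effect in R1 did not pass the test (adjusted p = 0.0838), and replicate 3 was the lowest CAWS R1 library. The differences of *Clec9a* (adjusted p = 0.00759), *Klrd1* (adjusted p = 0.00944) and *Jaml* (adjusted p = 0.00588) passed the test. The CAWS effect in R1 alone passed for *Clec9a* (adjusted p = 0.00271) but not for *Klrd1* (adjusted p = 0.05935). Without the block, the calls of *Klrd1* and *Jaml* were lost, with an adjusted p of up to 0.256 for *Klrd1* and 0.168 for *Jaml*. The call of *Klrd1* was also lost without naive R1 replicate 1 (adjusted p = 0.0715) and without naive R1 replicate 2 (adjusted p = 0.0512).

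The summed level of 7 natural killer cell markers was 3.1 to 4.2 CPM in CAWS R3, 0.292 to 2.47 CPM in naive R3, 5.96 to 23.1 CPM in CAWS R1 and 0.999 to 2.02 CPM in naive R1. *Eomes*, *Gzma* and *Ncr1* were at 0 in naive R1. The part of such cells in the *Klrd1* result was not tested.

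*Ccr2* and MHC class II define the gates, so their levels check the sort and only their response to CAWS is described. *Ccr2*, the monocyte chemokine receptor (chromosome 9, 124101918 to 124109140), had 3596, 4223 and 3503 CPM in CAWS R3, against 2626, 2543 and 2063 CPM in naive R3. In R1, *Ccr2* had 79.96, 122 and 40.7 CPM in CAWS R1, against 5.42, 8.99 and 5.46 CPM in naive R1. R1 stayed far below R3, at 2.15% of its mean with CAWS and 0.275% in naive hearts. Among CAWS R1 libraries, *Ccr2*, *Cd209a*, *Flt3* and *Jaml* were each highest in replicate 2 and lowest in replicate 3. *Itgax*, *Mmp12* and *Mycl* did not share that order. The part of Ccr2-positive cells in the R1 results was not tested. The CAWS effect was 0.65 ± 0.28 (adjusted p = 0.129) in R3 and 3.62 ± 0.42 (adjusted p = 0.000142) in R1, a difference of -2.91 ± 0.51 (log2, SE; adjusted p = 0.012).

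MHC class II genes rose in R1, and few passed the test in R3. *H2-Ab1*, the class II beta chain (chromosome 17, 34263227 to 34269418), had 12780, 10350 and 8610 CPM in CAWS R3, against 12190, 13840 and 11100 CPM in naive R3. In R1, *H2-Ab1* had 1629, 1302 and 994 CPM in CAWS R1, against 586, 786 and 453 CPM in naive R1. The R3 groups overlapped, the R1 groups did not, and R1 remained at 12.4% of the R3 mean with CAWS and 4.92% without. The difference was -1.34 ± 0.11 (log2, SE; adjusted p = 7.72e-09). Of 13 tested members of the pathway, 7 had a lower effect in R3 (53.8%) and 6 did not pass. In R3 1 of 13 rose with CAWS (against 10.9% of all genes), and in R1 9 of 13 rose (against 8.6%). With any single R1 or R3 library left out, 7 to 10 members were lower. The 7 were *H2-Aa*, *H2-Ab1*, *H2-Eb1*, *H2-DMa*, *H2-DMb1*, *Cd74* and *Ciita*. *Ciita*, the master activator of class II transcription, was named after its values were seen. *Ciita* had 344, 321 and 444 CPM in CAWS R3, against 348, 371 and 300.4 CPM in naive R3. In R1, *Ciita* had 72.1, 77.2 and 61.2 CPM in CAWS R1, against 27.8, 31.5 and 19.7 CPM in naive R1. Its difference was -1.29 ± 0.19 (log2, SE; adjusted p = 0.000289). *Cd74*, the invariant chain, had a difference of -1.17 ± 0.13 (log2, SE; adjusted p = 3.41e-06), and *H2-Eb1* one of -1.68 ± 0.14 (log2, SE; adjusted p = 4.96e-07). Without the block in the same 18 libraries 5 members were lower, and *Cd74* lost the call (adjusted p = 0.0537). Without the block in all 21 libraries the adjusted p was 0.0529 for *Cd74*, 0.107 for *H2-Ab1*, 0.13 for *H2-Eb1*, 0.295 for *H2-Aa* and 0.152 for *H2-DMb1*.

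Of 20 tested MHC class I genes, 10 rose in R3 (against 10.9% of all genes) and 10 rose in R1 (against 8.6%), while 3 had a lower effect in R3 (15%). Without naive R3 replicate 2 this count was 1. Without the libraries of naive pool 2 it was 0 by edgeR, the tool run there, with 3 members lower at an unadjusted p under 0.05, and the fit without pool terms gave the same pair of counts. *H2-D1*, a classical class I heavy chain, had 3444, 3649 and 3413 CPM in CAWS R3, against 2892, 3009 and 2565 CPM in naive R3. In R1, *H2-D1* had 3787, 4327 and 4084 CPM in CAWS R1, against 2582, 2578 and 2347 CPM in naive R1. CAWS raised it by 0.31 ± 0.08 (adjusted p = 0.00607) in R3 and 0.70 ± 0.08 (adjusted p = 2.11e-06) in R1, a difference of -0.39 ± 0.08 (log2, SE; adjusted p = 0.00312). *H2-Q4* and *H2-T23*, a pair of nonclassical class I genes, were the others, with differences of -0.45 ± 0.10 (log2, SE; adjusted p = 0.00697) and -0.37 ± 0.09 (log2, SE; adjusted p = 0.0115). Class I genes have near-identical copies, so the split of reads among them is uncertain, and the call of *H2-D1* was lost under 3 of 29 alternatives, with adjusted p-values of up to 0.0863. The call of *H2-Q4* was lost under 4 of 29 alternatives, with adjusted p-values of up to 0.118, and that of *H2-T23* under 11 of 29 alternatives, with adjusted p-values of up to 0.294, among them with any of 6 single libraries left out.

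**Figure D2:**
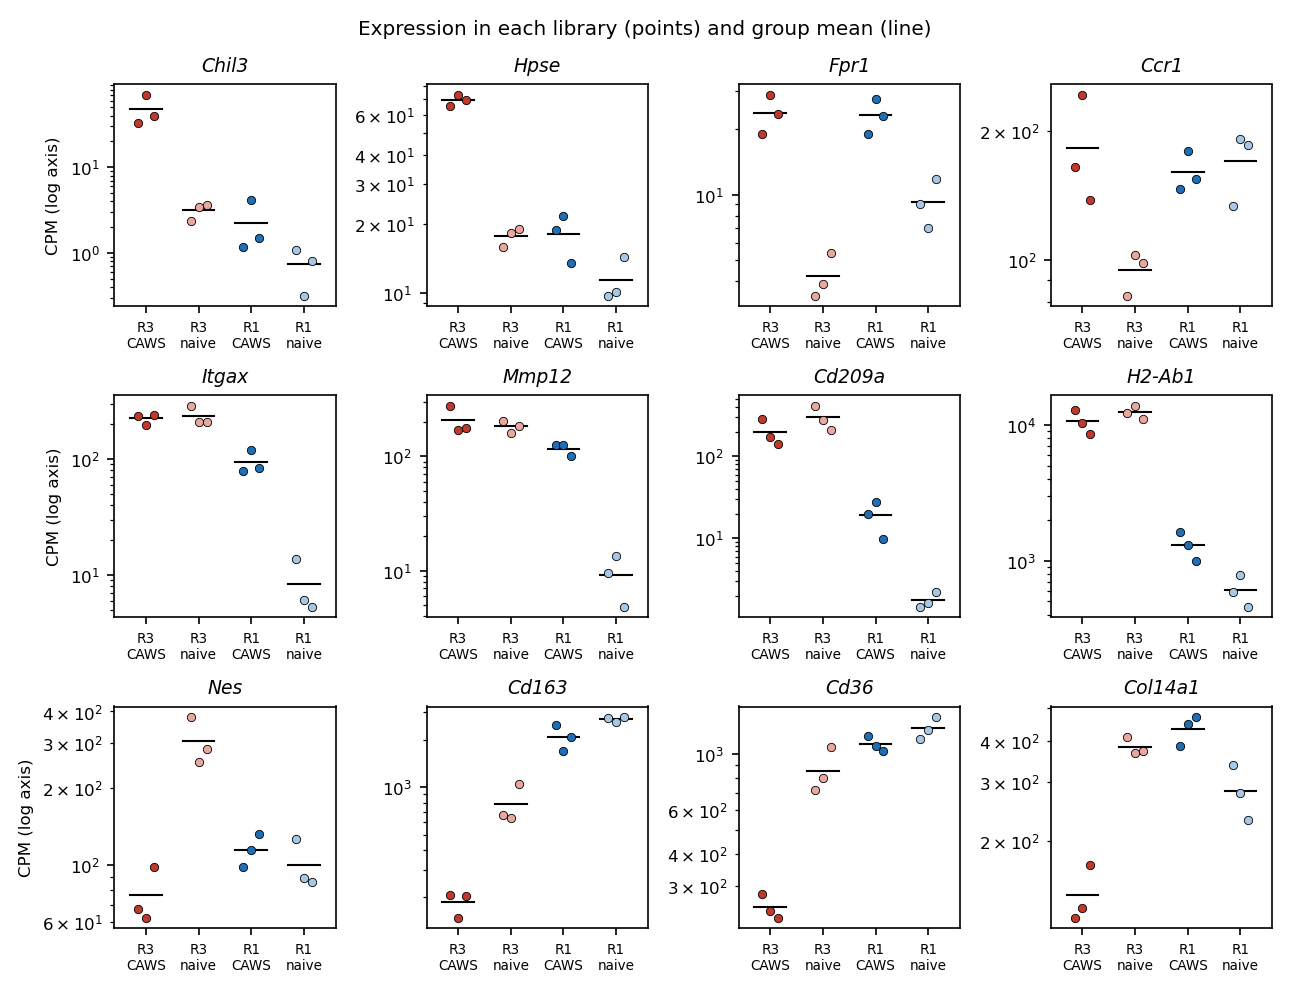
CPM on log axes in each library (points) with the group mean (line), for 12 genes, with R3 left of R1 and CAWS left of naive. In the top row CAWS R3 lies above naive R3, in the middle row CAWS R1 lies above naive R1 with R3 overlapping, and in the bottom row CAWS R3 lies below naive R3.

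The second pattern was a fall in R3 with an R1 effect that did not pass. *Nes* encodes nestin, an intermediate filament protein (chromosome 3, 87971093 to 87980451). *Nes* had 67.5, 61.9 and 98.6 CPM in CAWS R3, against 382, 254 and 286 CPM in naive R3. In R1, *Nes* had 97.97, 115 and 132 CPM in CAWS R1, against 126, 88.7 and 85.7 CPM in naive R1. The R3 groups did not overlap and the R1 groups did. CAWS lowered it in R3, at -2.01 ± 0.23 (adjusted p = 2.25e-05), and the difference of -2.22 ± 0.13 (log2, SE; adjusted p = 2.93e-11) was past the test under all 29 alternatives. Within pools, R3 minus R1 was -0.89 to -0.42 in the CAWS pools, against 1.51 to 1.74 in the naive pools. *Cxcl14*, a chemokine made by tissue-resident cells (chromosome 13, 56288643 to 56296811), had 6.56, 4.82 and 8.76 CPM in CAWS R3, against 30.4, 22.9 and 32.9 CPM in naive R3. In R1, *Cxcl14* had 12.9, 16.7 and 15.7 CPM in CAWS R1, against 16.6, 14.1 and 11.1 CPM in naive R1. The R1 groups overlapped, and the difference was -2.18 ± 0.26 (log2, SE; adjusted p = 4.45e-06). *Hs3st3a1*, a heparan sulfate sulfotransferase (chromosome 11, 64435332 to 64522835), had 2.27, 2.65 and 5.19 CPM in CAWS R3, against 21.5, 17.6 and 16.6 CPM in naive R3. In R1, *Hs3st3a1* had 15.7, 13.8 and 14.4 CPM in CAWS R1, against 10.9, 11.6 and 6.81 CPM in naive R1. CAWS lowered it in R3, at -2.43 ± 0.27 (adjusted p = 4.47e-07), its R1 effect of 0.57 ± 0.21 (adjusted p = 0.0767) did not pass, and the difference was -3.02 ± 0.29 (log2, SE; adjusted p = 2.02e-07).

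Among resident macrophage genes, CAWS lowered 17 of 26 in R3 (against 10.4% of all genes) and 7 of 26 in R1 (against 4.67%). The difference was lower for 6 of them (23.1%) and higher for 1, *Maf*, with a list median of -0.64. The count of 6 became 4 without CAWS R1 replicate 1 and 11 without naive R3 replicate 1, was 6 without the libraries of naive pool 3 and 4 without the block. *Maf* lost its call without CAWS R1 replicate 2. *Cd163*, the haptoglobin-hemoglobin scavenger receptor (chromosome 6, 124304636 to 124330529), had 208, 148 and 206 CPM in CAWS R3, against 665, 637 and 1043 CPM in naive R3. In R1, *Cd163* had 2465, 1707 and 2089 CPM in CAWS R1, against 2738, 2587 and 2807 CPM in naive R1. Both R3 and R1 groups were free of overlap, R3 by a wide margin, and the effect passed in R3 alone of the 2. The difference was -1.65 ± 0.15 (log2, SE; adjusted p = 2.68e-06). *Vsig4*, a complement receptor of resident macrophages (chromosome X, 96247201 to 96293438), had 16.1, 9.72 and 14.3 CPM in CAWS R3, against 56.6, 39.2 and 55.8 CPM in naive R3. In R1, *Vsig4* had 209.8, 154 and 222 CPM in CAWS R1, against 336, 213 and 324 CPM in naive R1. Its difference was -1.35 ± 0.14 (log2, SE; adjusted p = 4.82e-07), and without the block the adjusted p was 0.0768. *Gas6*, a bridge between dying cells and Axl-family receptors, had 185, 174 and 170.3 CPM in CAWS R3, against 329.6, 436 and 619.8 CPM in naive R3. In R1, *Gas6* had 1426, 1092 and 1143 CPM in CAWS R1, against 1518, 1667 and 1599 CPM in naive R1. It fell in R3, while its R1 effect of -0.39 ± 0.17 (adjusted p = 0.142) did not pass although the R1 groups did not overlap. The difference was -0.95 ± 0.16 (log2, SE; adjusted p = 0.0014). *Hpgd*, which degrades prostaglandins, had a difference of -0.63 ± 0.09 (log2, SE; adjusted p = 8.94e-05), and without the block in all 21 libraries its adjusted p was 0.353.

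A pair of defining genes, named after their values were seen, fell in both populations. *Timd4*, a phosphatidylserine receptor, had 10.7, 7.47 and 7.48 CPM in CAWS R3, against 41.3, 49.6 and 103 CPM in naive R3. In R1, *Timd4* had 132, 96.6 and 110.2 CPM in CAWS R1, against 227, 201 and 250.3 CPM in naive R1. Its CAWS effect was -2.92 ± 0.36 (adjusted p = 7.95e-05) in R3 and -1 ± 0.25 (adjusted p = 0.0203) in R1, and the difference of -1.85 ± 0.36 (log2, SE; adjusted p = 0.0117) was not past the test without CAWS R1 replicate 1 (adjusted p = 0.0598) or without CAWS R3 replicate 2 (adjusted p = 0.0592). *Lyve1*, a hyaluronan receptor, had 29.7, 24.5 and 28.4 CPM in CAWS R3, against 141, 162 and 410.2 CPM in naive R3. In R1, *Lyve1* had 594, 466 and 530 CPM in CAWS R1, against 1468, 1303 and 1576 CPM in naive R1. Replicate 3 was by far the highest of naive R3. *Lyve1* had a difference of -1.52 ± 0.41 (log2, SE; adjusted p = 0.0703), which did not pass.

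Receptors and bridging molecules for dying cells held many of these genes. Of 25 tested, 9 had a lower effect in R3 (36%), 3 a higher one, and the median difference was -0.27. Without naive R3 replicate 1, 1 was higher. Among the 9 was *Cd36*, a scavenger receptor for oxidised lipids and yeast glucans (chromosome 5, 17781690 to 17888959). *Cd36* had 279, 239 and 223 CPM in CAWS R3, against 716, 799 and 1061 CPM in naive R3. In R1, *Cd36* had 1174, 1075 and 1025 CPM in CAWS R1, against 1145, 1247 and 1404 CPM in naive R1. The R1 groups overlapped, and each CAWS R3 library was below each naive R3 library. The difference was -1.57 ± 0.10 (log2, SE; adjusted p = 5.15e-11). *Mfge8*, which bridges phosphatidylserine to integrins, had 39.9, 35.5 and 30.5 CPM in CAWS R3, against 64.9, 77.2 and 65.4 CPM in naive R3. In R1, *Mfge8* had 88.9, 80.8 and 79.4 CPM in CAWS R1, against 75.95, 81.9 and 74.9 CPM in naive R1. It fell in R3, with a difference of -1.07 ± 0.12 (log2, SE; adjusted p = 2.01e-06). *Havcr2* (Tim-3) differed by -1.10 ± 0.18 (log2, SE; adjusted p = 0.000183) through a rise in R1. The others were *Axl*, *Gas6*, *Pros1*, *Timd4*, *Cd163* and *Colec12*, and the 3 higher ones were *Scarf1*, *Scarb1* and *Cd300a*.

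Complement genes went both ways. Of 21 tested, 5 had a lower effect in R3 (23.8%) and 1 a higher one, and without the block 3 were lower. *Cfb*, factor B, which drives the alternative pathway (chromosome 17, 34856374 to 34862514), had 92.8, 177 and 176 CPM in CAWS R3, against 16.4, 13.6 and 19.4 CPM in naive R3. In R1, *Cfb* had 71.8, 83.5 and 101 CPM in CAWS R1, against 19.4, 13.6 and 26.1 CPM in naive R1. It rose in both and further in R3, with a difference of 1.003 ± 0.18 (log2, SE; adjusted p = 0.000752). Without the block its adjusted p was 0.274. *C2*, the classical pathway counterpart of *Cfb* and its neighbour on the chromosome (chromosome 17, 34862602 to 34882100), had 5.11, 5.91 and 7.41 CPM in CAWS R3, against 13.9, 13.2 and 16.3 CPM in naive R3. In R1, *C2* had 60.7, 64.4 and 52.9 CPM in CAWS R1, against 36.04, 36.6 and 48.4 CPM in naive R1. It fell in R3 and rose in R1, and the difference was -1.78 ± 0.22 (log2, SE; adjusted p = 5.57e-06). No source used here gives the strand setting of the counting, so reads near the boundary of *C2* and *Cfb* are uncertain.

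Other genes that fell in R3 without passing in R1 belonged to several lists. *Tnfsf13b*, the B-cell survival factor BAFF, had 21.7, 20.9 and 18.9 CPM in CAWS R3, against 50.3, 54.6 and 44.3 CPM in naive R3. In R1, *Tnfsf13b* had 23.5, 27.8 and 31.4 CPM in CAWS R1, against 22.4, 28.8 and 22.7 CPM in naive R1. Its difference was -1.45 ± 0.17 (log2, SE; adjusted p = 2.86e-06). *Ctsf*, a lysosomal cathepsin, had 41.5, 34.9 and 40.9 CPM in CAWS R3, against 74, 76.5 and 89.4 CPM in naive R3. In R1, *Ctsf* had 206, 179.5 and 184 CPM in CAWS R1, against 165, 172 and 151 CPM in naive R1. It differed by -1.25 ± 0.12 (log2, SE; adjusted p = 2.35e-07). *Bhlhe41*, a transcription factor of self-renewing tissue macrophages, had 1.46, 3.03 and 2.36 CPM in CAWS R3, against 6.32, 6.79 and 10.8 CPM in naive R3. In R1, *Bhlhe41* had 13.6, 14.3 and 12.2 CPM in CAWS R1, against 8.16, 9.68 and 14.02 CPM in naive R1. Its difference of -2.12 ± 0.34 (log2, SE; adjusted p = 0.000196) kept the call under all 29 alternatives, while its relative *Bhlhe40* differed by -1.65 ± 0.35 (log2, SE; adjusted p = 0.00465) through a rise in R1 and lost the call under 3 of 29 alternatives, with adjusted p-values of up to 0.235.

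CAWS moved 35 genes in opposite directions in the 2 populations, each past all 3 tests, and 34 of them fell in R3 and rose in R1. *Col14a1*, a fibril-associated collagen (chromosome 15, 55307644 to 55520803), had 117, 126 and 169.7 CPM in CAWS R3, against 409.6, 368 and 373 CPM in naive R3. In R1, *Col14a1* had 385, 447 and 472 CPM in CAWS R1, against 337, 278 and 231 CPM in naive R1. The order of the populations reversed: R3 minus R1 was -1.82 to -1.47 in the CAWS pools, against 0.28 to 0.69 in the naive pools on the log2 CPM scale. The difference was -2.12 ± 0.11 (log2, SE; adjusted p = 3.04e-12). *Cadm1*, a cell adhesion molecule of cross-presenting dendritic cells (chromosome 9, 47530170 to 47862280), had 58.4, 60.4 and 67.2 CPM in CAWS R3, against 194, 173 and 161 CPM in naive R3. In R1, *Cadm1* had 70.2, 87.4 and 83.6 CPM in CAWS R1, against 54.9, 52.6 and 53.6 CPM in naive R1. Here too R3 minus R1 changed sign: it was -0.53 to -0.26 in the CAWS pools, against 1.58 to 1.82 in the naive pools. For *Cadm1* the difference was -2.08 ± 0.12 (log2, SE; adjusted p = 2.07e-11).

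*C2*, described above, was another such gene. *Axl*, the Gas6 receptor (chromosome 7, 25756500 to 25788924), had 1124, 1258 and 1261 CPM in CAWS R3, against 1700, 1584 and 1479 CPM in naive R3. In R1, *Axl* had 627, 712 and 662 CPM in CAWS R1, against 569.8, 536 and 465 CPM in naive R1. The groups did not overlap in either population, and the difference was -0.74 ± 0.09 (log2, SE; adjusted p = 2.86e-06). *Tgfbr1*, the type I receptor for TGF-beta (chromosome 4, 47353222 to 47414926), had 446, 555 and 610.1 CPM in CAWS R3, against 758, 721 and 718 CPM in naive R3. In R1, *Tgfbr1* had 464, 586 and 585 CPM in CAWS R1, against 397, 404 and 433 CPM in naive R1. CAWS R3 lay below naive R3 and CAWS R1 above naive R1, with a difference of -0.86 ± 0.10 (log2, SE; adjusted p = 1.95e-06). *Ets1*, a transcription factor (chromosome 9, 32636241 to 32757820), had 24.4, 26.1 and 35.8 CPM in CAWS R3, against 45.6, 33.4 and 39.3 CPM in naive R3. In R1, *Ets1* had 49.4, 58.7 and 51.6 CPM in CAWS R1, against 31.7, 22.9 and 25.9 CPM in naive R1. Its R3 groups overlapped, and the difference was -1.44 ± 0.17 (log2, SE; adjusted p = 2.74e-06). *Asb2*, a ubiquitin ligase subunit, differed by -1.23 ± 0.14 (log2, SE; adjusted p = 1.59e-06), and *Hepacam2*, an adhesion molecule, by -1.90 ± 0.23 (log2, SE; adjusted p = 5.41e-06). *F11r*, the junctional adhesion molecule JAM-A, differed by -1.07 ± 0.15 (log2, SE; adjusted p = 3.46e-05), and without the block and with all 21 libraries its adjusted p was 0.153.

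**Figure D3:**
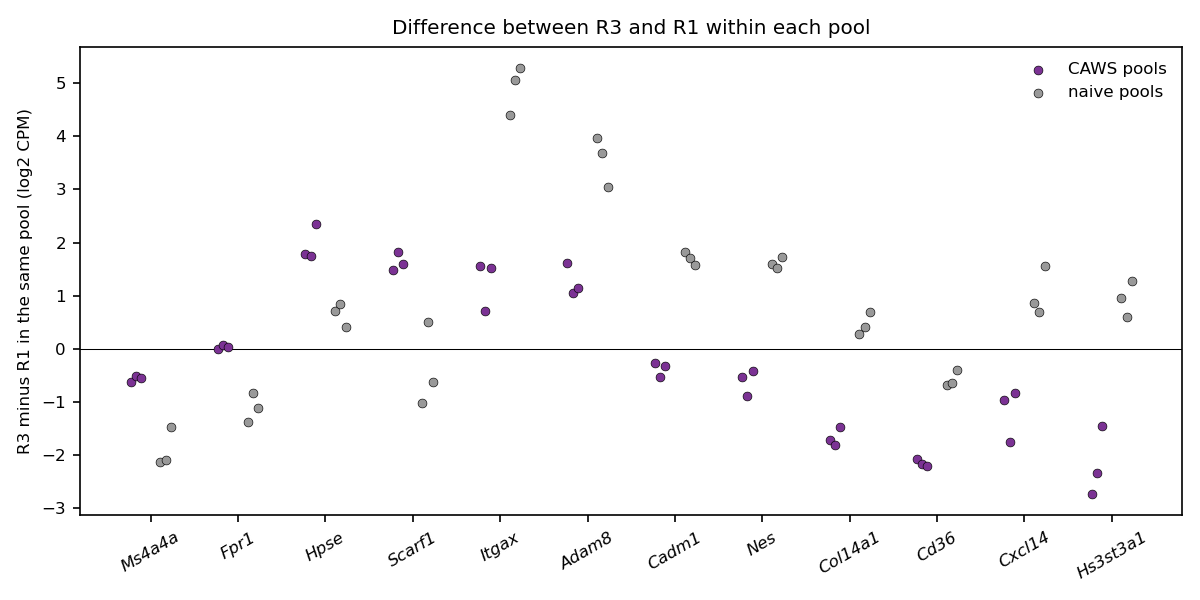
R3 minus R1 in the same pool (log2 CPM, vertical) for 12 genes, with the 3 CAWS pools in purple left of the 3 naive pools in grey. Most of the 12 were named by a rule that asks for CAWS and naive pools that do not overlap, so the gap between the colours is no result; for Cadm1, Nes, Col14a1, Cxcl14 and Hs3st3a1 the points lie on opposite sides of the zero line.

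Genes that CAWS raised more in R3 were fewer. *Hpse*, heparanase, which cuts heparan sulfate (chromosome 5, 100679484 to 100719716), had 65.5, 73.5 and 69.5 CPM in CAWS R3, against 15.8, 18.2 and 18.99 CPM in naive R3. In R1, *Hpse* had 18.8, 21.7 and 13.5 CPM in CAWS R1, against 9.66, 10.1 and 14.3 CPM in naive R1. It rose in both populations, and only the R3 groups were free of overlap. The difference was 1.31 ± 0.22 (log2, SE; adjusted p = 0.000246). *Ms4a4a*, a tetraspan membrane protein of macrophages (chromosome 19, 11375488 to 11392915), had 110.3, 111 and 124 CPM in CAWS R3, against 40.5, 38.7 and 52.8 CPM in naive R3. In R1, *Ms4a4a* had 169.7, 157 and 182 CPM in CAWS R1, against 179, 166 and 146 CPM in naive R1. It rose in R3 toward its R1 level, with a difference of 1.35 ± 0.17 (log2, SE; adjusted p = 5.42e-05). *Nxpe5*, of the neurexophilin-like family, had 34.04, 39.4 and 34.02 CPM in CAWS R3, against 10.6, 11.4 and 16.9 CPM in naive R3. In R1, *Nxpe5* had 44.5, 42.9 and 44.8 CPM in CAWS R1, against 33.1, 24.2 and 31.3 CPM in naive R1. It rose in both, further in R3, and the difference was 0.91 ± 0.19 (log2, SE; adjusted p = 0.003). These 3 kept their calls under all 29 alternatives.

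The largest higher difference was uncertain. *Chil3* encodes Ym1, a chitinase-like protein of alternatively activated macrophages and monocytes (chromosome 3, 106147554 to 106167564). *Chil3* had 32.7, 70.5 and 40.02 CPM in CAWS R3, against 2.34, 3.45 and 3.61 CPM in naive R3. In R1, *Chil3* had 1.17, 4.09 and 1.48 CPM in CAWS R1, against 1.09, 0.312 and 0.809 CPM in naive R1. CAWS R3 stood above all other libraries, and R1 was low in both treatments. CAWS raised it in R3 by 3.93 ± 0.35 (adjusted p = 1.81e-07), and the difference was 2.41 ± 0.72 (log2, SE; adjusted p = 0.0408). The call was lost under 14 of 29 alternatives, with adjusted p-values of up to 0.301, which include leaving out naive R1 replicate 1 (adjusted p = 0.273), naive R3 replicate 1 (adjusted p = 0.265) and 8 other single libraries (adjusted p from 0.0515 to 0.0991). *Chil3* has the close paralog *Chil4*, so reads may be shared.

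Receptors for microbial and chemotactic signals were among the higher genes. *Fpr1*, a receptor for formylated bacterial peptides (chromosome 17, 17876471 to 17883939), had 18.96, 28.9 and 23.6 CPM in CAWS R3, against 3.39, 3.85 and 5.35 CPM in naive R3. In R1, *Fpr1* had 19.02, 27.6 and 23.01 CPM in CAWS R1, against 9.06, 6.99 and 11.8 CPM in naive R1. With CAWS the populations had like levels, and in naive hearts R1 held more. The difference was 1.18 ± 0.25 (log2, SE; adjusted p = 0.00408), and without the block in all 21 libraries its adjusted p was 0.0577. *Ccr1*, a receptor for Ccl3 and Ccl5 (chromosome 9, 123962126 to 123968692), had 165, 243 and 138 CPM in CAWS R3, against 82.5, 103 and 98.8 CPM in naive R3. In R1, *Ccr1* had 147, 179.7 and 155 CPM in CAWS R1, against 134, 191 and 186 CPM in naive R1. It rose in R3, and the call for its difference of 0.99 ± 0.18 (log2, SE; adjusted p = 0.00269) was lost under 2 of 29 alternatives, with adjusted p-values of up to 0.127, both of them fits with no block.

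Fungal recognition genes went both ways. Of 25 tested, 3 had a higher effect in R3 (12% against 1.6% of all genes) and 4 a lower one (16%). With single libraries left out the higher count was 3 to 5, the highest without CAWS R1 replicate 3, and without the libraries of naive pool 2 the lower count was 2. *Scarf1*, a scavenger receptor for fungal beta-glucan (chromosome 11, 75513489 to 75526582), had 13.4, 17.8 and 14.5 CPM in CAWS R3, against 2.40, 3.05 and 3.21 CPM in naive R3. In R1, *Scarf1* had 4.72, 4.97 and 4.74 CPM in CAWS R1, against 4.98, 2.12 and 4.99 CPM in naive R1. The R1 groups overlapped, and the difference was 2.15 ± 0.37 (log2, SE; adjusted p = 0.000475). *Clec4n*, dectin-2, the receptor for fungal mannans (chromosome 6, 123229843 to 123247024), had 146, 163 and 135 CPM in CAWS R3, against 59.5, 61.6 and 75.8 CPM in naive R3. In R1, *Clec4n* had 174, 225 and 211 CPM in CAWS R1, against 159, 171 and 150.5 CPM in naive R1. It rose in both populations, further in R3, with a difference of 0.84 ± 0.13 (log2, SE; adjusted p = 0.000204). *Pycard*, the inflammasome adaptor ASC, had 112, 122 and 98.7 CPM in CAWS R3, against 57.1, 61.8 and 57.5 CPM in naive R3. In R1, *Pycard* had 52.3, 65.4 and 57.7 CPM in CAWS R1, against 46.2, 51.1 and 47.2 CPM in naive R1. It rose in R3, with a difference of 0.63 ± 0.12 (log2, SE; adjusted p = 0.00149), and without the block in all 21 libraries its adjusted p was 0.205. The 4 lower ones were *Cd209a*, *Cd36*, *Lgals3* and *Cd14*. *Lgals3*, galectin-3, which binds *Candida* mannosides, rose in both populations, by 1.11 ± 0.11 (adjusted p = 5.59e-08) in R3 and 1.79 ± 0.11 (adjusted p = 1.05e-10) in R1.

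Chemokine ligands held 3 higher (12.5%) and 4 lower members (16.7%) of 24 tested; without naive R3 replicate 3, 5 were higher, and without CAWS R3 replicate 1, 2 were. *Ccl6* and *Ccl9*, neighbours on chromosome 11 that encode Ccr1 ligands, had the higher effects together with *Ccl12*. *Ccl6* had 1294, 1396 and 1018 CPM in CAWS R3, against 918, 865 and 1049 CPM in naive R3. In R1, *Ccl6* had 852, 992 and 902 CPM in CAWS R1, against 1107, 1024 and 1277 CPM in naive R1. The R3 groups of *Ccl6* overlapped, and each CAWS R1 library lay below each naive R1 library. *Ccl9* had 916, 924 and 733 CPM in CAWS R3, against 622, 610.3 and 666 CPM in naive R3. As a share of its R3 mean, the R1 mean of *Ccl9* was 70.1% with CAWS and 111% in naive hearts. The differences of *Ccl6* and *Ccl9* were 0.69 ± 0.10 (log2, SE; adjusted p = 6.22e-05) and 0.66 ± 0.12 (log2, SE; adjusted p = 0.00103). Without the block in all 21 libraries the adjusted p was 0.0721 for *Ccl6* and 0.086 for *Ccl9*. The 4 lower ones were *Cxcl12*, *Cxcl13*, *Cxcl14* and *Cxcl16*. Of 12 chemokine receptors, *Ccr1* was higher and 3 were lower, *Ccr2* and *Cx3cr1* among them. The call of *Cx3cr1*, at -0.31 ± 0.09 with an adjusted p of 0.0456, was lost under 26 of 29 alternatives, with adjusted p-values of up to 0.433.

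Lipid-associated and repair genes had 2 higher (6.25%) and 6 lower members (18.8%) of 32 tested, and without naive R3 replicate 3, 5 were higher. *Cd9*, a tetraspanin, had 219, 213 and 199.6 CPM in CAWS R3, against 228, 249 and 224 CPM in naive R3. In R1, *Cd9* had 234, 338 and 291 CPM in CAWS R1, against 119, 105 and 107 CPM in naive R1. Its CAWS effect in R3, -0.15 ± 0.10 (adjusted p = 0.319), did not pass, and it rose in R1, with a difference of -1.52 ± 0.13 (log2, SE; adjusted p = 1.06e-08). *Ch25h*, which makes 25-hydroxycholesterol, differed by -1.28 ± 0.18 (log2, SE; adjusted p = 3.07e-05), and without the block its adjusted p was 0.13 in the same 18 libraries and 0.0646 in all 21. *Apoe*, the lipid carrier, had 16430, 15870 and 13630 CPM in CAWS R3, against 11610, 13590 and 16480 CPM in naive R3. In R1, *Apoe* had 19930, 14570 and 13720 CPM in CAWS R1, against 23930, 25210 and 23640 CPM in naive R1. It fell in R1, and the difference was 0.76 ± 0.12 (log2, SE; adjusted p = 0.00012). *Trem2*, a lipid receptor named after its values were seen, rose in R3 by 0.79 ± 0.12 (adjusted p = 5.71e-05) and differed by 0.58 ± 0.13 (log2, SE; adjusted p = 0.00436). The calls of *Apoe* and *Trem2* were lost in the fits with no block, with an adjusted p of up to 0.175 for *Apoe* and 0.233 for *Trem2*.

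*Tnip3*, a binding partner of the NF-kB inhibitor A20, had 107, 70.7 and 59.7 CPM in CAWS R3, against 54.9, 45.7 and 32.97 CPM in naive R3. In R1, *Tnip3* had 9.80, 10.5 and 8.91 CPM in CAWS R1, against 1.49, 2.31 and 1.21 CPM in naive R1. It rose in both, with a difference of -1.75 ± 0.31 (log2, SE; adjusted p = 0.000521). *Il1rn*, the interleukin-1 receptor antagonist, had 32.7, 34.4 and 42.2 CPM in CAWS R3, against 17.02, 13.8 and 14.5 CPM in naive R3. In R1, *Il1rn* had 20.4, 23.9 and 29.1 CPM in CAWS R1, against 4.98, 4.87 and 7.08 CPM in naive R1. The call for its difference of -0.87 ± 0.21 (log2, SE; adjusted p = 0.0126) was lost under 5 of 29 alternatives, with adjusted p-values of up to 0.12, among them without naive R1 replicate 1 (adjusted p = 0.12) and without naive R1 replicate 2 (adjusted p = 0.0544). *Tnfaip3*, A20 itself, differed by -1.06 ± 0.19 (log2, SE; adjusted p = 0.000566) and rose in R1, and without the block in all 21 libraries its adjusted p was 0.178. Of 27 tested NF-kB response genes, 3 were lower (11.1%), *Tnip3* and *Tnfaip3* but not *Il1rn* among them. With single R1 or R3 libraries left out, 2 to 4 were lower. The gene *Cd40*, 1 of the 27, was higher, a call lost under 8 of 29 alternatives.

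Of 28 tested interferon-gamma-induced genes, 14 rose in R3 (against 10.9% of all genes) and 14 rose in R1 (against 8.6%). In the difference, 1 had a higher and 1 a lower effect in R3 (3.57% each). Without naive R1 replicate 1, 3 were higher. *Gbp2* and *Cxcl9* were named after their values were seen. *Gbp2*, a guanylate-binding protein, had 137, 182 and 169.8 CPM in CAWS R3, against 60.8, 60.5 and 39.1 CPM in naive R3. In R1, *Gbp2* had 79.8, 121 and 134 CPM in CAWS R1, against 43.4, 37.3 and 44.1 CPM in naive R1. Its difference of 0.21 ± 0.16 (log2, SE; adjusted p = 0.489) did not pass. *Cxcl9*, a T cell chemokine, had 53.2, 62.2 and 70.4 CPM in CAWS R3, against 8.78, 15.5 and 12.97 CPM in naive R3. In R1, *Cxcl9* had 13.2, 10.7 and 9.93 CPM in CAWS R1, against 3.68, 2.87 and 3.23 CPM in naive R1. Its difference of 0.56 ± 0.32 (log2, SE; adjusted p = 0.327) did not pass either. Of 29 type I interferon-stimulated genes 1, *Rtp4*, had a higher effect, and its call was lost under 6 of 29 alternatives, with adjusted p-values of up to 0.688, among them without CAWS R3 replicate 2 (adjusted p = 0.105), CAWS R3 replicate 1 (adjusted p = 0.0546) or naive R1 replicate 2 (adjusted p = 0.0551). Of 36 cell cycle genes 0 passed edgeR's test, 3 had an unadjusted p under 0.05, and 0 passed with DESeq2 or limma voom.

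*Saa3*, an acute-phase serum amyloid named after its values were seen, was higher in each CAWS library than in each naive library. Its level in R3 was low, with replicate 3 the highest of CAWS R3. *Saa3* had 1.78, 4.04 and 13.7 CPM in CAWS R3, against 0.234, 0 and 1.27 CPM in naive R3. In R1, *Saa3* had 39.1, 60.7 and 70.1 CPM in CAWS R1, against 0.0498, 0 and 0.472 CPM in naive R1. Each CAWS R1 library lay above each CAWS R3 library, and the naive groups held 23 counts in R3 and 8 counts in R1. The difference did not pass the test (adjusted p = 0.107).

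Other lists had few members past the test. Of 24 leukocyte integrins and adhesion genes 5 were lower (20.8%), namely *Itgax*, *Itgb7*, *Vcam1*, *Jaml* and *Alcam*. Of 24 costimulatory and TNF family genes 5 were lower (20.8%) and *Cd40* was higher. Of 32 lineage transcription factors 5 were lower (15.6%), namely *Rxra*, *Runx1*, *Runx3*, *Bhlhe40* and *Bhlhe41*, and *Maf* was higher. Sterol and fatty acid synthesis genes had 4 of 29 lower (13.8%). Of 25 NADPH oxidase and oxidant defence genes 3 were lower (12%), of 34 cathepsin and lysosome genes 3 were lower (8.82%), and of 29 glycolysis and hypoxia genes 2 were lower (6.9%) and 1 was higher. Iron and heme handling had 3 of 19 lower and 1 higher, but with any single R1 or R3 library left out 1 or 2 were lower, and without naive pool 2, naive pool 3 or the block 1 was; the call of *Slc11a2*, an iron transporter, was lost under 26 of 29 alternatives. Of 25 immediate early genes 2 were lower (8%), *Zfp36* and *Ccn1*, and of 15 heat shock genes 1, *Hspa8*, was higher. Of 35 Toll-like receptor, inflammasome and interleukin-1 genes 3 were higher and 3 lower (8.57% each), of 24 CSF receptor and GM-CSF response genes 1 was higher and 3 lower, and of 22 alternative activation genes 1 was higher and 2 lower. Classical monocyte genes had 1 of 21 higher and 4 lower, and nonclassical monocyte genes had 3 of 13 lower. With single R1 or R3 libraries left out, the lower members numbered 2 to 6 for the integrins and adhesion genes, 3 to 5 for the lineage transcription factors and 1 to 4 for the NADPH oxidase and classical monocyte genes. Without the block 2 integrin and adhesion genes, 2 lineage transcription factors, and 1 member each of the NADPH oxidase, classical monocyte, nonclassical monocyte and Toll-like receptor lists were lower. The higher members of the costimulatory, lineage transcription factor, glycolysis, iron, heat shock and alternative activation lists each lost the call with at least 1 library left out. Without the libraries of naive pool 2, edgeR called 0 NADPH oxidase genes lower, with 5 lower at an unadjusted p under 0.05, and likewise 0 and 5 of the Toll-like receptor, inflammasome and interleukin-1 genes. The calls of *Itgb7* and *Vcam1* were each lost under 20 of 29 alternatives, those of *Runx1* and *Hspa8* under 11, that of *Ccn1* under 12 and that of *Alcam* under 5. For the nonclassical monocyte genes the range with single libraries left out was 1 to 5, the lowest without CAWS R3 replicate 1 and the highest without CAWS R1 replicate 3. In that list *Spn*, CD43, had 169.9, 165 and 193 CPM in CAWS R3, against 136, 148 and 132 CPM in naive R3. In R1, *Spn* had 166, 274 and 191 CPM in CAWS R1, against 91.1, 83.8 and 56.2 CPM in naive R1. It rose in R1, with a difference of -1.08 ± 0.21 (log2, SE; adjusted p = 0.00696). *Ace*, angiotensin-converting enzyme, had 266.9 CPM in CAWS R1 replicate 2 against 63.6 and 50.7 CPM in the others of that group, and its call was lost under 17 of 29 alternatives, with adjusted p-values of up to 0.169, among them with any of 12 single libraries left out.

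**Figure D4:**
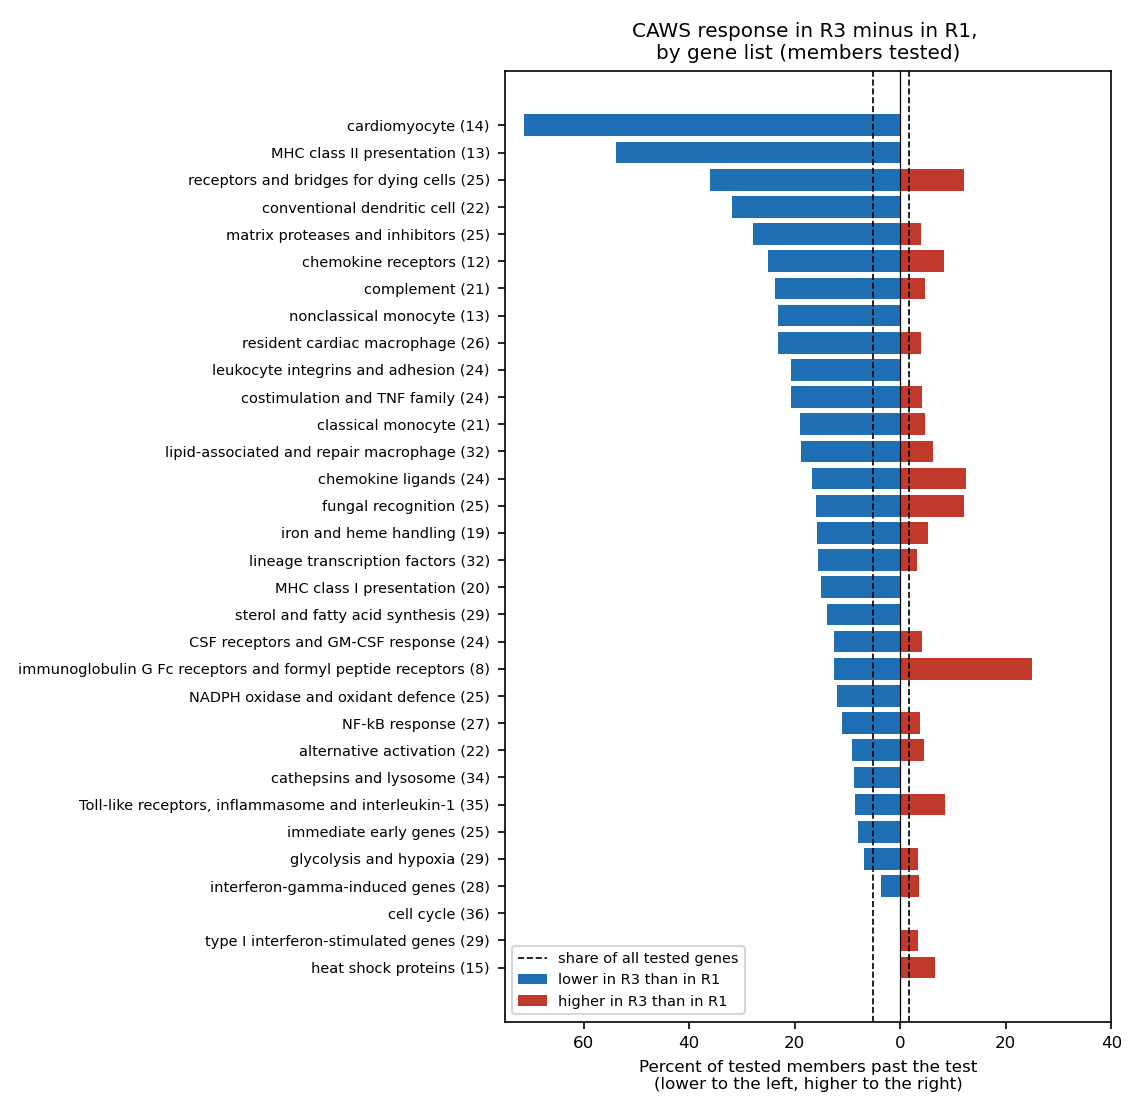
Percent of the tested members of each gene list with a lower (blue, to the left) or higher (red, to the right) CAWS effect in R3 than in R1, with the number tested in parentheses and dashed lines at the shares of all tested genes, 5.25% lower and 1.6% higher. The cardiomyocyte markers, a list of another cell type, and the MHC class II genes have the longest blue bars, at 71.4% and 53.8%, and cell cycle has no bar. The lists were chosen with earlier results of these data known.

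Markers of cardiac muscle moved with the lower genes. Of 14 tested cardiomyocyte markers, 10 had a lower effect in R3 (71.4%) with a list median of -1.54. They were *Myh6*, *Actc1*, *Tnnt2*, *Tnni3*, *Tnnc1*, *Myl2*, *Myl3*, *Mb*, *Pln* and *Ckm*. The summed level of the 15 markers was 86.5 to 129 CPM in CAWS R3, 155 to 192 CPM in naive R3, 116 to 135 CPM in CAWS R1 and 61.6 to 89.3 CPM in naive R1, and *Nppb* alone was at 0 in a group, CAWS R1. *Mb*, myoglobin, named after its values were seen, had 17.3, 24.7 and 28.5 CPM in CAWS R3, against 37.9, 37.04 and 37.6 CPM in naive R3. In R1, *Mb* had 23.3, 22.1 and 30.9 CPM in CAWS R1, against 17.7, 18.3 and 15.3 CPM in naive R1. The sum is low in all libraries, its direction in each population is that of the genes that fell in R3 and rose in R1, and its part in those results was not tested.

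Markers of other cells were uneven as well. Endothelial markers summed to 143.7 to 153.7 CPM in CAWS R3, 155.5 to 166 CPM in naive R3, 162.3 to 171.2 CPM in CAWS R1 and 129.7 to 139.2 CPM in naive R1, so that CAWS and naive libraries did not overlap in either population. Of 11 tested, 0 passed edgeR's test, 6 had an unadjusted p under 0.05, 1 was called by DESeq2 and 0 by limma voom, and the median difference was -1.08. Fibroblast markers summed to 733 to 822 CPM in CAWS R3, 498 to 1042 CPM in naive R3, 503 to 513 CPM in CAWS R1 and 326 to 369 CPM in naive R1. Of 11 tested, 0 passed edgeR's test and 3 had an unadjusted p under 0.05, with 0 called by DESeq2 or limma voom. Smooth muscle and pericyte markers summed to 19.1 to 70.9 CPM in CAWS R3, 38.9 to 158 CPM in naive R3, 62.4 to 74.4 CPM in CAWS R1 and 41.9 to 67.9 CPM in naive R1, and *Pdgfrb* and *Mylk* of 8 tested were lower. Neutrophil markers summed to 106 to 109 CPM in CAWS R3, 51.0 to 65.4 CPM in naive R3, 65.9 to 80.6 CPM in CAWS R1 and 45.5 to 49.6 CPM in naive R1, with *Ly6g*, *Camp*, *Ngp* and *Elane* at 0 in all 4 groups. The part of these cells in *Nes*, *Col14a1* and the other genes was not tested.

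Promoters of the genes with the largest difference in each direction, *Chil3* and *Jaml*, are printed to show their sequence, with those of *Cxcl14* and *Itgax*, the genes of smallest p among the 15 largest each way that hold a searched motif. Each runs 5′ to 3′ from 250 bases before to 50 bases after the RefSeq start (GRCm38.p6), in lower case with motif matches on either strand in capitals.
Chil3 (chr3:106167515-106167814, minus strand): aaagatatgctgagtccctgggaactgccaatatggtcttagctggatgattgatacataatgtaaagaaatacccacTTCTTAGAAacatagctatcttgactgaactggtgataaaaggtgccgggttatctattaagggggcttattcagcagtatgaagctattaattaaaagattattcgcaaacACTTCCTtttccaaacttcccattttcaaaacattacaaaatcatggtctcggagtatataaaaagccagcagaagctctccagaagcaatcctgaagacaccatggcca
Jaml (chr9:45078933-45079232, plus strand): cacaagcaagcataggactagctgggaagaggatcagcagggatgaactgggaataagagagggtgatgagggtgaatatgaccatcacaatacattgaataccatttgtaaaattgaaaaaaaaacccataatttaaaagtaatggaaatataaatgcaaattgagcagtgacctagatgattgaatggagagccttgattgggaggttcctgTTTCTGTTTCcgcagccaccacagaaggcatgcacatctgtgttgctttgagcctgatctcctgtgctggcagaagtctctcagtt
Cxcl14 (chr13:56296502-56296801, minus strand): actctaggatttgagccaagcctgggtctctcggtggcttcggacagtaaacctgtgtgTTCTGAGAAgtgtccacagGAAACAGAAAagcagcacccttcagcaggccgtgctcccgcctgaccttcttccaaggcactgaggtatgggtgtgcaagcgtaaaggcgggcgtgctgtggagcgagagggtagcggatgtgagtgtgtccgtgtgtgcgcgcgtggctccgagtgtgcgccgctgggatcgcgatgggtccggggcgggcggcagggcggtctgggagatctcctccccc
Itgax (chr7:128129300-128129599, plus strand): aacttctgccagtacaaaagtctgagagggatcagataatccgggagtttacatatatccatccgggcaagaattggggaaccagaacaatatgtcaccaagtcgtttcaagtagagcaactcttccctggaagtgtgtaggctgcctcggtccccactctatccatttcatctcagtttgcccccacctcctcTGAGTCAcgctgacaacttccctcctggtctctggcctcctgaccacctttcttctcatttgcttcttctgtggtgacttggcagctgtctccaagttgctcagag
The searched motifs were GAAA followed after any 2 bases by another GAAA (interferon-stimulated response element), GGGNNTTCC (NF-kB), TGANTCA (AP-1), TTCNNNGAA (STAT) and AGGAAGT (PU.1). The capitals mark a STAT and a PU.1 match in *Chil3*, an interferon-stimulated response element match in *Jaml*, that motif and a STAT match in *Cxcl14*, and an AP-1 match in *Itgax*. Of 12882 promoters of 10121 tested genes, 3.31% hold the first, 7.26% GGGNNTTCC, 5.26% TGANTCA, 6.82% TTCNNNGAA and 9.42% AGGAAGT. Among 12 promoters of the largest higher genes the counts in that order were 1, 1, 0, 3 and 1, and among 19 promoters of 14 of the largest lower genes 2, 0, 4, 1 and 2. The matches describe these windows only.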

How the data were processed

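Sorted cardiac macrophages gave RNA for TruSeq libraries, per the labels' protocols. The authors deposited read counts per gene, not normalised, from featureCounts on mm10 (GRCm38), per the submitters' processing notes. Aligner, strand setting, annotation release and featureCounts version are unknown, being not given in the sources used here. Per-sample tables matched the combined table in 21 of 21 cases. Of 27179 gene IDs, 25275 matched a symbol in RefSeq (GRCm38.p6), which also gave gene positions and promoters.

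Genes passing edgeR's filterByExpr (minimum count 10, minimum total 15) were tested, which left 13159 (270 have no symbol). The 18 cardiac libraries (R1, R2 and R3) were fitted with edgeR 4.0.16 (TMM, robust quasi-likelihood, R 4.3.3), with a term for each of 6 pools and the difference between the CAWS effects of R3 and R1 as the tested term (8 residual degrees of freedom). Pools are nested in treatment, so the CAWS effect within R3 or R1 came from a fit of group means (12 residual degrees of freedom). Tests are two-sided, with a Benjamini-Hochberg adjusted p under 0.05. The SE is the log2 change divided by the root of F. CPM use TMM-adjusted library sizes, and log2 CPM a prior count of 2. Replicates differed by more than counting error, with a chi-square per degree of freedom of 10.2 to 50.5 over the 18 libraries. Within the R1 and R3 groups it was 11.3 to 26. The fit was checked on simulated counts with an assumed pool spread and no CAWS effect in the other genes. Of 50 genes changed at each size, it called 68% at a true difference of 1 and 58% at -1. At 2 it called 96%, and at -2 it called 76%, so among these genes lower differences were found less often. Whether that holds for the measured genes was not tested.

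The pool comes from the series design and the replicate numbers. Over the 7159 genes averaging at least 4 on the log2 CPM scale, same-numbered R1 and R3 libraries of a treatment deviated together from their group means in 6 of 6 pairs (correlations 0.153 to 0.314), against -0.323 to 0.0739 for other numbers. Over all tested genes the same-numbered pairs ran from 0.0221 to 0.104, against -0.0834 to 0.0585 for other numbers, so the ranges overlapped. Deviations from a group mean cancel out within the group, so same-number and other-number correlations are not independent. The pairing therefore rests on the design.

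Named genes are the 15 largest differences each way among called genes (highest group mean of at least 4 log2 CPM, CAWS and naive pools not overlapping), up to 4 called genes per list, by smallest p, up to 10 genes moved in opposite directions, *Ccr2*, *H2-Ab1*, *Adgre1* and *Csf1r*. Of 13159 tested genes, 22.3% had pools that did not overlap. Gene models and pseudogenes were left out, and some genes that the rule picked are not reported here. Names outside this rule are marked as chosen after their values were seen, except as follows. *H2-Aa* and *Itgb7* were chosen in that way but carry no mark. Members of a list that are named only with its count carry no mark either. The members and lists were chosen with earlier results of these data known. Alternatives were no pool block, the 12 libraries alone, DESeq2 1.42.0, limma voom (limma 3.58.1), other scaling and filters, and each library left out in turn. R2 and the splenic monocytes are not described here.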

Additional observations from a re-analysis of the deposited data

Results flagged for a closer look

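The CAWS effect differed between R3 and R1 for 902 genes by the test of the difference itself, and for 35 of these CAWS moved the gene past the test in opposite directions in the 2 populations. Those picked by the naming rule and reported here had differences, on the log2 scale and as R3 minus R1, of -2.08 for *Cadm1*, -1.78 for *C2*, -0.74 for *Axl*, -2.12 for *Col14a1*, -1.23 for *Asb2*, -0.86 for *Tgfbr1*, -1.44 for *Ets1*, -1.90 for *Hepacam2* and -1.07 for *F11r*. Each fell in R3 and rose in R1.

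Among markers of a cell type outside the gates, 10 cardiomyocyte genes had a lower CAWS effect in R3 than in R1, and their part in the other differences was not tested.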

How the results depend on the processing

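Of the values of named genes under the alternatives, 3132 kept their direction and their side of the threshold, 515 lost the call, 6 gained it and 1 moved, and 125 of 126 named genes kept their direction throughout. With no replicate block, 72 genes were higher and 365 lower in the same 18 libraries, and 13 and 287 in all 21 libraries; in those 21 libraries CAWS raised 890 genes in R3 and lowered 381 in R1. With only the 12 R1 and R3 libraries and the replicate block, 83 were higher and 448 lower. Without the libraries of naive pool 2, chosen after seeing the data, 460 were lower, and CAWS raised 748 genes in R1. With each library left out in turn, 92 to 424 genes were higher and 446 to 713 lower, CAWS raised 920 to 1697 and lowered 755 to 1379 in R3, and raised 759 to 1175 and lowered 423 to 718 in R1. With 2 libraries left in a group, its spread is assumed to be that of the others. DESeq2, limma voom, other scaling and other filters kept each of these counts within 1.5 times. The causes were not tested. Of the called named genes, 43 kept the call under all 29 alternatives, and most lost it under at least 1. Depth limits the genes near 0 in naive R1, such as *Clec9a*, *Klrd1* and *Jaml*.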
